A study of Mus musculus with 25 samples.

Results

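The genes described here encode the machinery that makes the programmed DNA double-strand breaks of meiosis. They were taken by name: Spo11, Top6bl (listed as Gm960), Mei1, Mei4, Rec114, Iho1 (listed as Ccdc36), Ankrd31, Prdm9 and Zcwpw1. All 9 were found among the 14103 genes of a single-cell RNA-seq matrix of mouse testis. The matrix holds 4528 cells sorted for a 4N DNA content at postnatal day 10, from 2 libraries of Ythdc2 knockout (KO) mice, here KO A with 1522 cells and KO B with 1855 cells, and 1 library of wild-type (WT) mice with 1151 cells. A 4N content is shared by cycling cells after replication and by cells in meiotic prophase. Per the labels, the knockout line was described in earlier work, and the sources used here do not say which part of Ythdc2 it lacks. The titles of the single-cell samples say embryo, but the age label (postnatal day 10) was followed. The bulk and crosslinking samples of the series (YTHmut and E332Q mutants and their controls) were not analysed here.

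The helicase YTHDC2 binds RNA through a YTH and other domains, and germ cells without it fail to exchange mitosis for meiotic prophase. In that prophase SPO11, a relative of the catalytic subunit of type VI topoisomerases, cuts DNA together with TOP6BL, its partner subunit. Where and when it cuts depends on a set of proteins on the chromosome axis, REC114, MEI4, IHO1, ANKRD31 and MEI1. PRDM9 marks the hotspots by methylating histone H3 at the sites that its zinc fingers bind, and ZCWPW1 reads that histone mark and is needed for repair of the breaks.

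By RefSeq annotation of GRCm38.p6, Spo11 lies on chromosome 2 (172977379 to 172993576), Zcwpw1 on chromosome 5 (137787157 to 137822621), Rec114, Mei4 and Iho1 on chromosome 9 (58652856 to 58822706, 81863670 to 82206007 and 108403492 to 108431841). Ankrd31 lies on chromosome 13 (96748289 to 96909794), Mei1 on chromosome 15 (82070074 to 82126817), Prdm9 on chromosome 17 (15543072 to 15564374) and Top6bl on chromosome 19 (4625734 to 4698713). RefSeq promoter windows, each 250 bases before and 50 after a transcript start, were matched for 8 members, in 10 windows. They were searched on both strands for CNCCTCAG, a motif reported for STRA8 (the transcription factor that drives meiotic entry in mouse), for GGCGGGAA, an E2F6 site, and for CACGTG, an E-box. Each motif was found in 1 of the 8 members, beside 7.94%, 2.19% and 7.15% of all 32851 windows. The Prdm9 and Rec114 windows are shown because they alone among the 10 windows held a match. The Rec114 window lies inside the annotated span of the gene. Capitals mark the matches, and offsets are counted from 0 at the start base. In Prdm9 the E2F6 site at -47 on the opposite strand overlaps a STRA8 motif at -41, and another STRA8 motif stands at 14. In Rec114 an E-box stands at -19.
Prdm9, chr17:15564305-15564604, minus strand: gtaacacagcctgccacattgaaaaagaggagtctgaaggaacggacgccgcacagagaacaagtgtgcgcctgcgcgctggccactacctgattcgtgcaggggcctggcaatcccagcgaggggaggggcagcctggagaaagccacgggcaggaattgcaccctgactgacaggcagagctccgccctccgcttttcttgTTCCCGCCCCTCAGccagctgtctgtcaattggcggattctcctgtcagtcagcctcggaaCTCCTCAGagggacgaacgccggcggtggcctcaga
Rec114, chr9:58741510-58741809, minus strand: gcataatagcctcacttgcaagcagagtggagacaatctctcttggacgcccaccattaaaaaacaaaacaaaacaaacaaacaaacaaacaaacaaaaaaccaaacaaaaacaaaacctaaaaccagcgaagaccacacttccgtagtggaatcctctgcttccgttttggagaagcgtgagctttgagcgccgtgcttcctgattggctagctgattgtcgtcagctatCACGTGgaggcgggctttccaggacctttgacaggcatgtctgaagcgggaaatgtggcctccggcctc
A match of letters is not a bound site.

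The libraries held 18089957 (KO A), 25447581 (KO B) and 16342955 (WT) UMIs, with 9760, 12091 and 12827 in the median cell and a median mitochondrial share of 9.11%, 6.64% and 5.59%. No barcode was held by more than 1 library. The KO libraries differed from each other beyond sampling noise (chi-square over 13366 genes, 14.5 for each degree of freedom). The sources used here do not say whether 1 animal or several gave them. The p-values rest on the spread between KO A and KO B alone. WT, with 1 library, adds no spread and is taken to vary as the KO libraries do. Ythdc2 was at 47.0 CPM (UMIs per 1000000) in KO A and 42.6 in KO B, against 196 in WT. The authors' clusters are numbered 1 (undifferentiated spermatogonia), 2 (differentiating spermatogonia), 3 (leptotene-zygotene spermatocytes), and 4 and 5, both named by the authors as mixes of differentiating and leptotene-zygotene cells. No KO cell lay in cluster 3 (0 in each KO library, against 427 in WT). Cluster 4 had 592 cells of KO A and 441 of KO B, against 24 of WT, and cluster 5 had 335 of KO A and 510 of KO B, against 1 of WT. The summed level of 8 leptotene-zygotene markers was 6969 CPM in cluster 3, and ranged from 4954 to 5078 CPM in cluster 5, 3240 to 3658 in cluster 4, 1916 to 2863 in cluster 2 and 843 to 847 in cluster 1. The 6 differentiating spermatogonia markers were lower in cluster 2, the cluster of that name (696 to 1037 CPM), than in cluster 3 (1763) or cluster 5 (2405 to 2569). Peritubular myoid markers reached 2070 CPM in cluster 1 and at most 8.47 elsewhere, and red blood cell markers reached 444 CPM in cluster 2 of 1 library. Their part in the results was not tested beyond leaving out the cells that carry them.

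In WT the genes of the break machinery did not come on together. Rec114 in cluster 2 was nearest to its own cluster 3 level, Mei4, Mei1, Zcwpw1 and Ankrd31 came next, and Top6bl, Iho1, Prdm9 and Spo11 had the smallest shares of their cluster 3 level in cluster 2. The measure of onset was the WT level of cluster 2 as a percent of that of cluster 3. It was 80.0% for Rec114, 49.4% for Mei4, 39.9% for Mei1, 38.9% for Zcwpw1, 38.0% for Ankrd31, 22.1% for Top6bl, 20.9% for Iho1, 18.5% for Prdm9 and 13.6% for Spo11. Neighbours in this order such as Mei1, Zcwpw1 and Ankrd31 could not be separated, with rises between clusters 2 and 3 of 2.51-fold (95% interval 2.21 to 2.85), 2.57-fold (2.45 to 2.70) and 2.63-fold (2.42 to 2.86). Intervals here and below cover counting error only, and WT had 1 library, so no test was made between clusters. The clusters were also made from all genes, these included.

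By WT cluster, Rec114, which bridges the break complex to other proteins, was at 57.6, 84.8 and 106 CPM in clusters 1, 2 and 3. Prdm9 was at 5.23, 45.1 and 243 CPM. Spo11 was at 2.09, 2.78 and 20.4 CPM. Cluster 2 of WT was above cluster 1 beyond the counting intervals for Rec114, Mei4, Mei1, Zcwpw1 and Prdm9. For Ankrd31, Top6bl, Iho1 and Spo11 the intervals of clusters 1 and 2 overlapped, although the ratio of Iho1 (1.75-fold, 1.04 to 3.17) had an interval above 1. Prdm9 thus combined a rise already in cluster 2 (8.61-fold over cluster 1, 3.66 to 26.7) with a late bulk, and Ankrd31 a level of 81.6 CPM already in cluster 1.

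**Figure D1:**
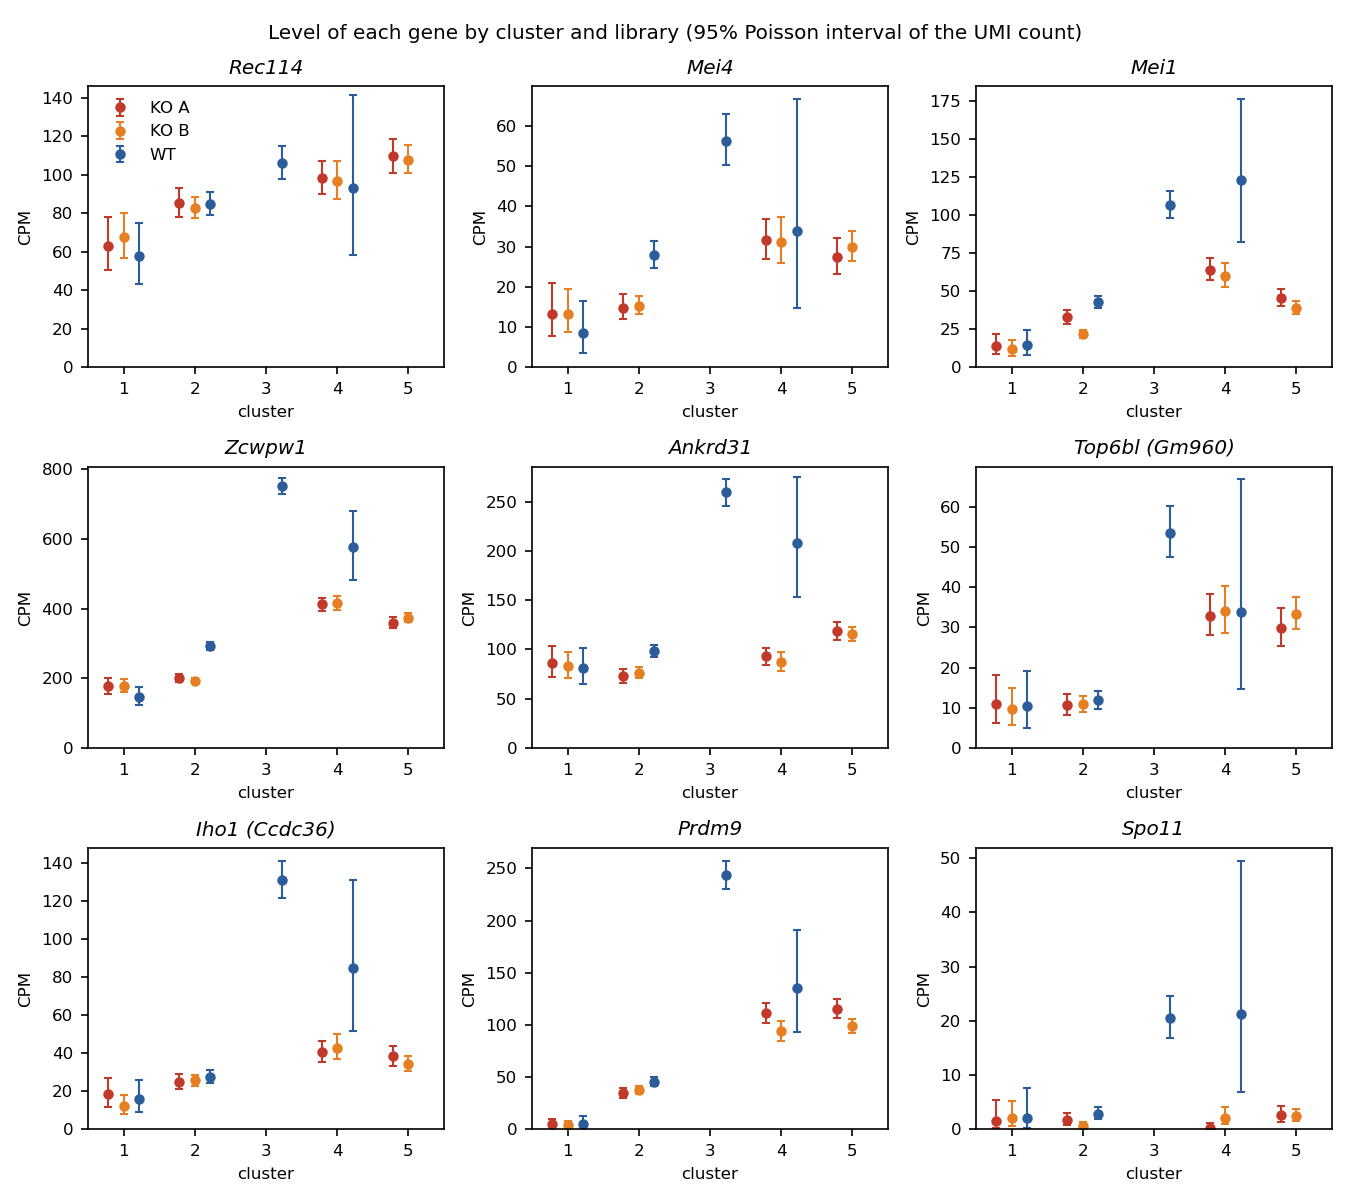
Level of each gene (CPM, y axis from 0) in clusters 1 to 5 (x axis), ordered by onset in WT, for KO A, KO B and WT with 95% Poisson intervals; the 1 WT cell of cluster 5 is not drawn and cluster 3 holds WT cells only. Rec114 is near its WT cluster 3 level of 106 CPM in the KO mixed clusters, while Spo11 stays at 0.199 to 2.55 CPM there, against 20.4 in WT cluster 3.

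The genes of the catalytic pair stood at different shares of their WT cluster 3 level in the KO mixed clusters, Spo11 at 0.974% to 12.5% and Top6bl at 55.7% to 63.5%. Spo11 was at 0.199 CPM in cluster 4 and 2.55 in cluster 5 of KO A (1 and 14 UMIs), and at 2.03 and 2.41 in KO B (8 and 20 UMIs), against 20.4 CPM (111 UMIs) in WT cluster 3. The interval of each KO value lies below the WT interval (16.8 to 24.6). Against cluster 2 of the same library, Spo11 in KO B was 3.26-fold higher in cluster 4 (1.03 to 10.5) and 3.86-fold higher in cluster 5 (1.57 to 10.8). In KO A the ratios were 0.123 (0.00285 to 0.868) and 1.58 (0.654 to 3.98), and in cluster 4 the intervals of KO A and KO B did not overlap. Top6bl was at 32.8 and 29.9 CPM in clusters 4 and 5 of KO A and 34.0 and 33.5 in KO B, against 53.6 in WT cluster 3. Within the KO libraries Top6bl stood 2.81- to 3.13-fold above its own cluster 2 level of 10.6 (KO A) and 10.9 CPM (KO B).

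Of the axis-bound break genes, Rec114 was the one whose KO intervals all overlapped that of WT. It was at 98.1 and 110 CPM in clusters 4 and 5 of KO A and 96.7 and 108 in KO B, against 106 in WT cluster 3. Mei4, which binds REC114 directly, was at 31.6 and 27.5 CPM in KO A and 31.2 and 30.0 in KO B, against 56.3. Iho1, which anchors the complex to the axis protein HORMAD1, was at 40.6 and 38.4 CPM in KO A and 42.9 and 34.2 in KO B, against 131. Iho1 was thus at 26.0% to 32.7% of WT cluster 3, the lowest share after Spo11, and Mei4 at 48.8% to 56.2%. Ankrd31, a REC114 partner needed for breaks in the region that X and Y share, was at 92.9 and 119 CPM in KO A and 87.3 and 115 in KO B, against 259. Its KO level was higher in cluster 5 than in cluster 4. Mei1, needed for breaks in mouse, was at 64.1 and 45.3 CPM in KO A and 60.2 and 38.9 in KO B, against 107, and went the other way, lower in cluster 5.

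Both hotspot genes had levels between those of KO cluster 2 and WT cluster 3. Prdm9 was at 111 and 115 CPM in clusters 4 and 5 of KO A and 93.6 and 98.7 in KO B, against 243 in WT cluster 3, and stood 2.52- to 3.33-fold above the KO cluster 2 level. Zcwpw1 was at 412 and 359 CPM in KO A and 416 and 375 in KO B, against 751. Of the 36 KO values (9 genes, 2 clusters, 2 libraries), 34 lay below the WT cluster 3 value, and the other 2 were Rec114 in cluster 5.

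**Figure D2:**
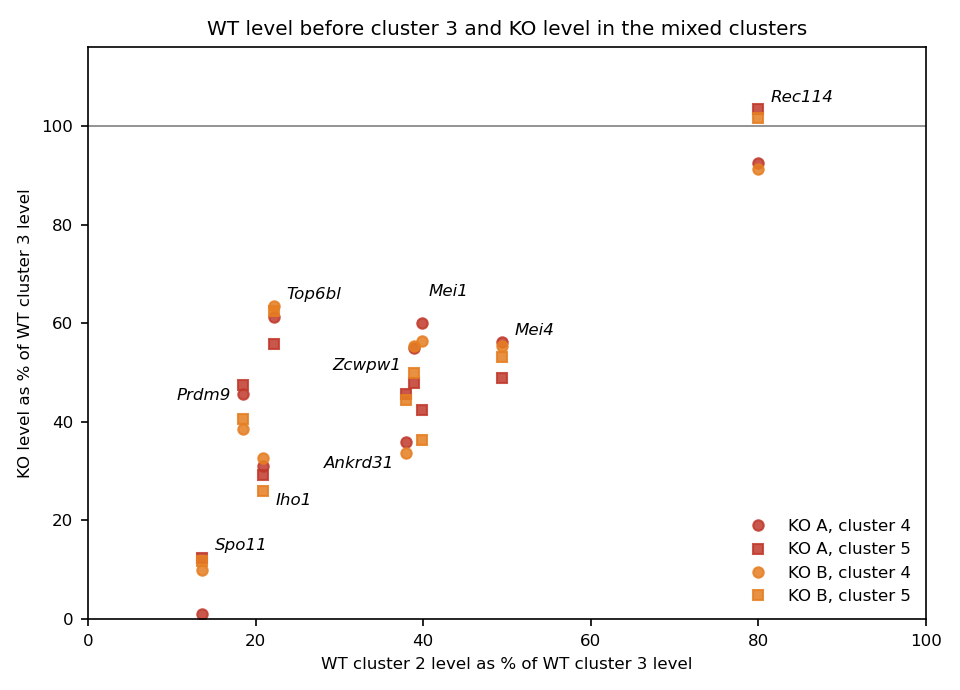
Each gene's WT cluster 2 level (x axis) and its KO level in clusters 4 and 5 (y axis), both as a percent of its WT cluster 3 level, which the axes share. Rec114 stands at 80.0% and 91.2% to 103%, Spo11 at 13.6% and 0.974% to 12.5%, and Top6bl and Iho1, at 22.1% and 20.9% on the x axis, differ on the y axis (55.7% to 63.5% and 26.0% to 32.7%).

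KO was tested against WT on the mean of count/size factor over the cells of each library (normalised UMIs per cell), in clusters 3, 4 and 5 together, which set KO cells of clusters 4 and 5 beside WT cells mainly of cluster 3. Of the 9 members, 8 fell and 0 rose in KO, beside 29.1% of the 9299 genes tested that were called lower and 37.4% higher. Spo11 passed the filter on low values only through WT, so its call there is no support, and its test with no filter is given. With no filter 8 of the 9 were also called lower, and the share over all genes was not counted at that setting. Spo11 averaged 0.0180 ± 0.0101 normalised UMIs per cell in the KO libraries (SD, n = 2), against 0.248 in WT, a 13.8-fold difference of plain means. On log2(value + 0.01), which shrinks changes of low genes, the change was -3.25 (limma with no filter, adjusted p = 0.0006). The log2 value was -1.56 with a pseudocount of 0.1, -2.88 with KO B alone and -3.63 with KO A alone. Iho1 averaged 0.409 ± 0.00997 in KO and 1.58 in WT, 3.86-fold lower (log2 -1.92, SE 0.12; limma with the filter, adjusted p = 1.2e-58). With no filter, the setting given for Spo11, its adjusted p was 8.3e-05 (limma), so the size of these p-values depends on the setting. Both KO libraries were below WT for each of the 9 genes. Ankrd31, Prdm9, Mei1, Zcwpw1, Mei4 and Top6bl had log2 changes of -1.52, -1.36, -1.22, -1.13, -0.95 and -0.85. Their largest limma adjusted p was 9.2e-10 with the filter and 0.00132 with no filter, both for Top6bl. Rec114 was at 1.06 ± 0.0134 in KO and 1.20 in WT and did not pass (log2 -0.18, SE 0.10; limma, adjusted p = 0.119). edgeR called it (log2 -0.23, adjusted p = 0.0473), as did limma on TMM-scaled sums (adjusted p = 0.0344) and with KO cluster 4 alone (log2 -0.31, adjusted p = 0.0174), and DESeq2 did not. The median log2 change was -1.22 over the members and 0.08 over all genes tested. These p-values rest on a spread that limma shared fully across genes in these clusters. An exact test of 1 library against 2 cannot go below p = 0.333.

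**Figure D3:**
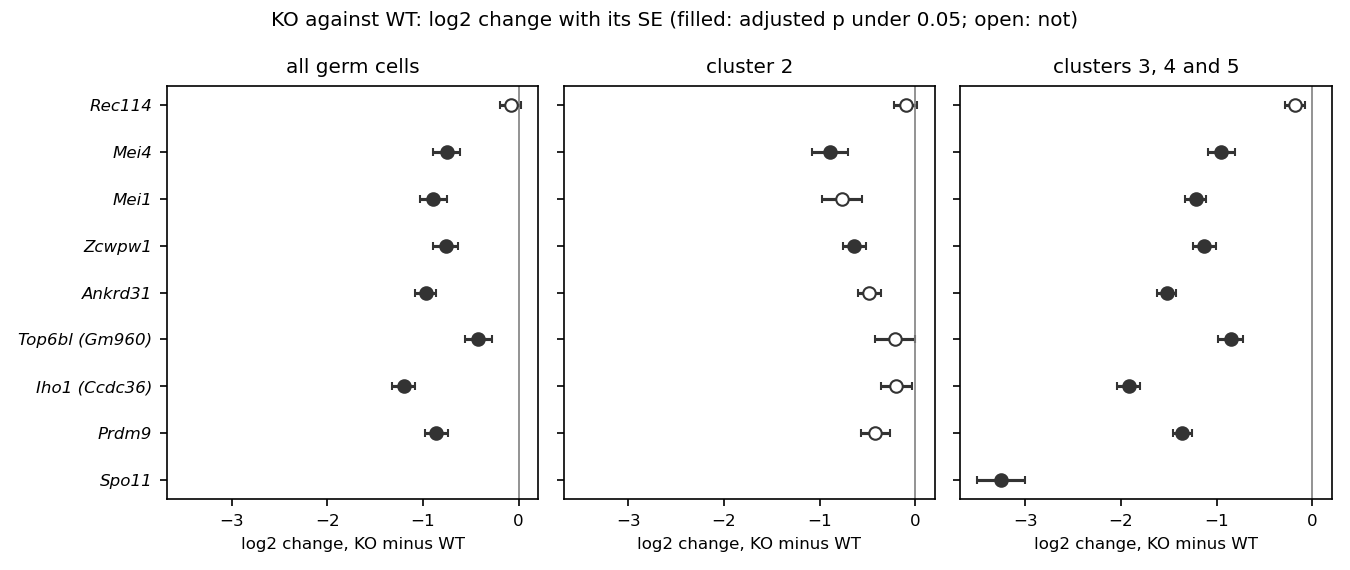
Log2 change of KO against WT on the log2(value + 0.01) scale with its SE, for all germ cells, cluster 2, and clusters 3, 4 and 5; filled points passed an adjusted p of 0.05 and Spo11 is drawn only where it passed the filter on low values. In clusters 3, 4 and 5 the values run between -3.25 for Spo11 and -0.18 for Rec114.

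In cluster 2, which holds cells of both genotypes in number (529 KO A, 814 KO B and 654 WT cells), 2 of the 8 members that passed the filter fell and 0 rose, beside 1.43% of 9435 genes called lower and 2.87% higher. The markers of this cluster also differed by genotype. Leptotene-zygotene markers summed to 1916 CPM in KO A and 2102 in KO B, against 2863 in WT, differentiating markers to 990 and 1037, against 696, and undifferentiated markers to 51.9 and 49.9, against 31.3. Their part in the result was not tested. Mei4 was at 14.8 CPM in KO A and 15.3 in KO B, against 27.8 in WT, and both KO libraries were close together and below WT. On normalised values it averaged 0.159 ± 0.0122 in KO and 0.303 in WT (log2 -0.89, SE 0.19; limma, adjusted p = 0.0297). Zcwpw1 was at 202 CPM in KO A and 194 in KO B, against 292 in WT (log2 -0.64, SE 0.12; limma, adjusted p = 0.0177). Ankrd31 and Mei1 just missed the threshold (log2 -0.48 and -0.77; limma, adjusted p = 0.0504 and 0.0587), with Mei1 at 32.7 CPM in KO A and 21.6 in KO B, against 42.6 in WT. Iho1, Top6bl and Rec114 did not pass, with log2 differences of -0.20, -0.21 and -0.10 (limma, adjusted p = 0.471, 0.577 and 0.628) and Iho1 at 24.7 CPM in KO A and 25.6 in KO B, against 27.4. Prdm9 had -0.42 (adjusted p = 0.118). Spo11, with 10 UMIs in KO A, 7 in KO B and 27 in WT, was below the filter. The calls here depend on the test: edgeR called Mei4, Zcwpw1, Ankrd31 and Mei1, DESeq2 called Zcwpw1 alone (4 of 8 at an unadjusted p under 0.05), and with doublets left out limma lost Mei4 (adjusted p = 0.0535). With no filter on low values limma called 0 of the 9, with 5 at an unadjusted p under 0.05. Shares over all genes were not counted for these other settings or for unadjusted p. The member counts there therefore have no background beside them.

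Over all germ cells together, 7 of the 8 members that passed the filter fell and 0 rose, beside 14.8% of 9637 genes called lower and 18.3% higher. The mix of clusters enters these values. The log2 changes ran between -1.20 for Iho1 and -0.42 for Top6bl, and Rec114 at -0.08 did not pass (limma, adjusted p = 0.609). Top6bl (limma, adjusted p = 0.0214) was not called by DESeq2 (adjusted p = 0.302) or by limma on TMM-scaled sums (log2 -0.34, adjusted p = 0.0531). Spo11 had 27 UMIs in KO A and 39 in KO B, against 146 in WT, and was tested only with no filter on low values (log2 -2.33; limma, adjusted p = 1.7e-08).

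Genes that act beside the break machinery were taken from lists, whose counts stand beside 29.1% of all genes lower and 37.4% higher in clusters 3, 4 and 5, and 1.43% and 2.87% in cluster 2. Of 13 genes of break control and hotspot function, 10 fell and 3 rose in clusters 3, 4 and 5 (median log2 -0.80), and 4 fell and 0 rose in cluster 2 (median -0.24). Hormad1, Hormad2, Sycp2, Sycp3, Stag3, Rec8 and Rad21l of this list are also among the axis and synaptonemal complex genes used below. The counts of these lists therefore overlap. The axis cohesin subunit Rad21l was at 25.2 CPM in KO A and 20.2 in KO B, against 145 in WT, in clusters 3, 4 and 5 (log2 -2.83; limma, adjusted p = 2.2e-101). Trip13, the ATPase that takes HORMAD proteins off the axis, had 136 (KO A) and 134 CPM (KO B), against 71.6 in WT, and rose (log2 0.85; limma, adjusted p = 1.5e-15). Hormad1, to which IHO1 binds, fell already in cluster 2 (122 CPM in KO A, 146 in KO B, against 234 in WT; log2 -0.85; limma, adjusted p = 0.0129). Of the break processing genes tested, 11 of 17 fell and 2 rose in clusters 3, 4 and 5, and 3 of 14 fell in cluster 2. Meiob, a single-strand DNA binding protein, had 10.4 (KO A) and 7.51 CPM (KO B), against 52.4 in WT, in clusters 3, 4 and 5, and fell (log2 -2.78; limma, adjusted p = 8.5e-52). The strand exchange recombinase Dmc1 fell in cluster 2 (71.7 CPM in KO A, 70.0 in KO B, against 96.5 in WT; log2 -0.51; limma, adjusted p = 0.0393). Of 9 meiotic entry genes 4 fell and 3 rose in clusters 3, 4 and 5, which is near the shares over all genes. The 4 include Ythdc2, the gene knocked out (log2 -2.53), whose fall follows from the genotype. Meiosin (listed as Gm4969), the partner of STRA8, had 6.12 (KO A) and 6.50 CPM (KO B), against 22.0 in WT, in cluster 2 (log2 -1.62; limma, adjusted p = 0.00576). Sohlh1, a transcription factor of spermatogonia, was at 110 CPM in both KO libraries, against 18.3 in WT, in clusters 3, 4 and 5, and rose (log2 2.53; limma, adjusted p = 8.2e-99).

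Cells were also placed by the summed level of 13 axis and synaptonemal complex genes, none of them a member. WT cells of clusters 2 and 3 were cut into 5 ranges of equal number (edges at 3349, 4294, 5710 and 9269 CPM), and KO cells of clusters 2, 4 and 5 were put into the same ranges. Only 11 KO A and 19 KO B cells reached the highest range, against 217 WT cells. The members' levels along this score differed by genotype in a gene-dependent way. In range 4, where KO and WT cells had axis sums of 6756, 6761 and 7557 CPM (KO A, KO B, WT), every member was lower in both KO libraries. The counting intervals still overlapped that of WT for Top6bl in both KO libraries and for Rec114 and Spo11 in KO A. Iho1 was there at 36.0 CPM in KO A and 37.4 in KO B, against 110 in WT, and Prdm9 at 128 and 115, against 208. In range 3, Prdm9 was at 105 CPM in KO A and 81.4 in KO B, against 59.7 in WT, and Top6bl at 28.2 and 31.2, against 13.4. Both were above WT there beyond the counting intervals, while the intervals of KO A and WT overlapped for Iho1 (36.4 in KO A and 36.5 in KO B, against 36.0) and Ankrd31 (101 and 98.4, against 118). In that range clusters 4 and 5 gave 94.3% of the KO A cells and 93.3% for KO B, against 6.02% of WT cells from cluster 3, and median depths were 9570 UMIs in KO A, 11419 in KO B and 15714 in WT. The axis list itself fell in KO (12 of 13 genes in clusters 3, 4 and 5), so equal sums need not mean equal stages, and genotype and stage cannot be told apart here.

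**Figure D4:**
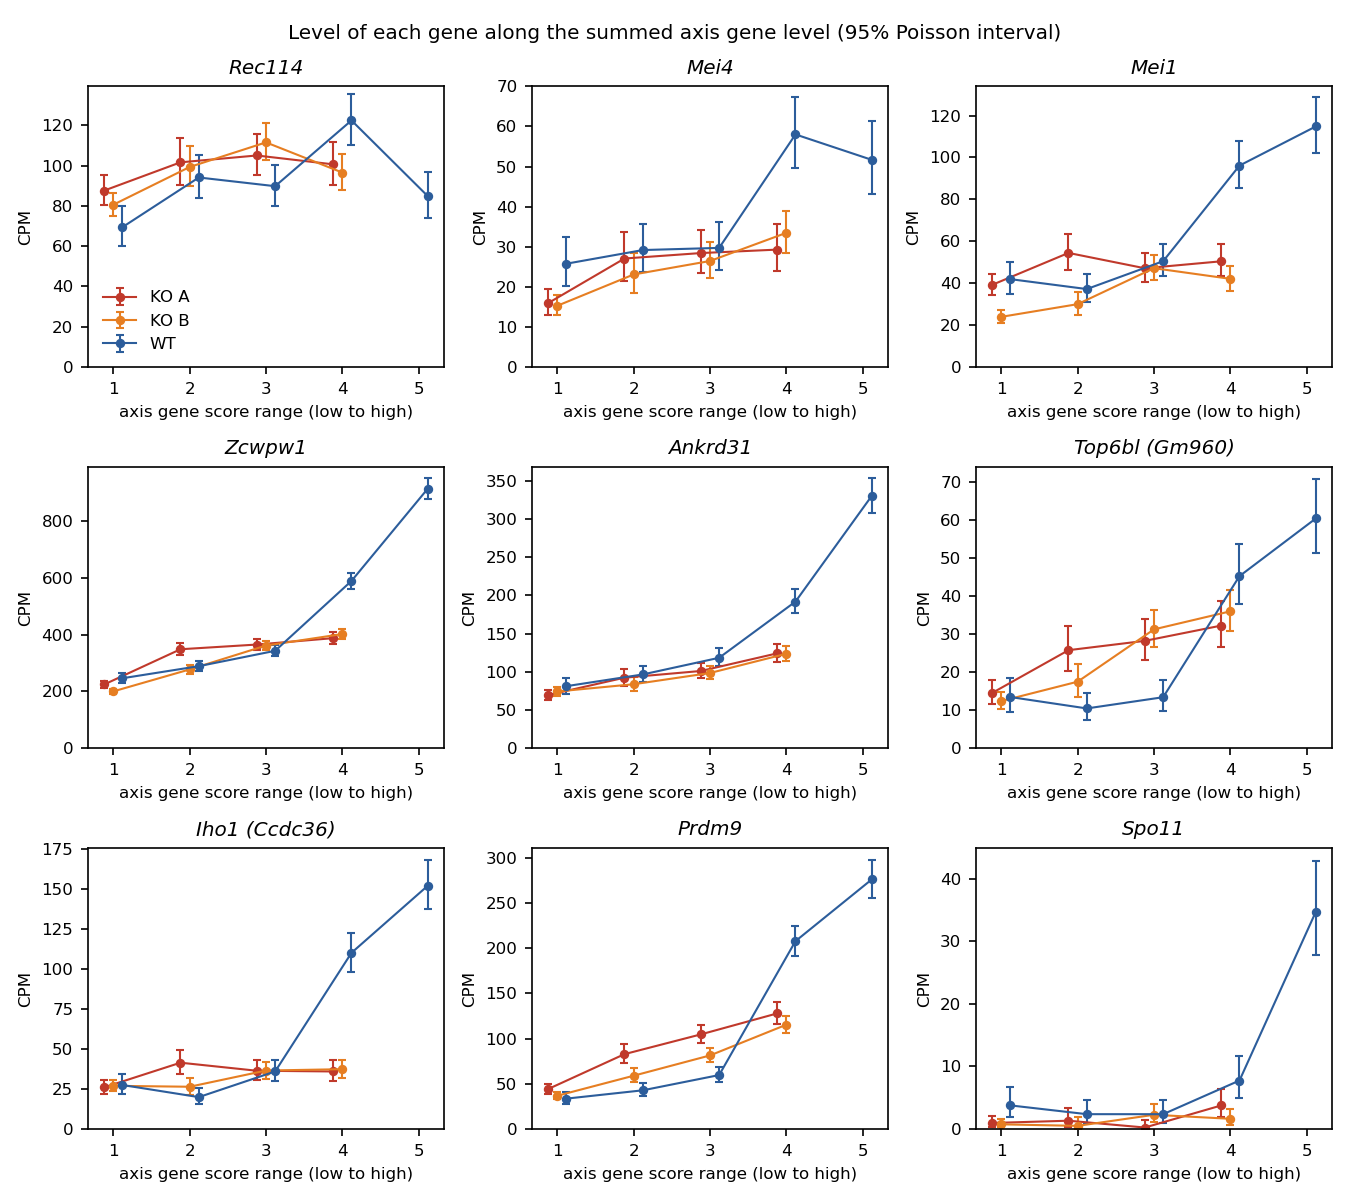
Level of each gene (CPM, y axis from 0) in 5 ranges of the axis gene sum (x axis, low to high), with 95% Poisson intervals; KO points of range 5 (11 and 19 cells) are not drawn. Between ranges 3 and 4 WT Iho1 goes up to 110 CPM while KO stays at 36.0 and 37.4, and KO Prdm9 lies above WT in range 3 and below it in range 4.

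In the highest range the few KO cells gave wide intervals, and the genes did not behave alike. Prdm9 was at 197 (128 to 288) CPM in KO A and 199 (145 to 265) in KO B, against 276 (256 to 297) in WT, and the intervals overlapped. Spo11 had 1 UMI in the 11 KO A cells and 6 UMIs in the 19 KO B cells, 25.9 CPM (9.51 to 56.4) in KO B, against 34.7 (27.8 to 42.8) in the 217 WT cells. Zcwpw1 was below WT in both KO libraries, at 537 CPM in KO A and 600.1 in KO B, against 916. Ankrd31 was at 250 CPM in KO A and 142 in KO B, against 330 in WT, Iho1 at 106 and 60.4, against 152, and Mei1 at 53.0 and 47.5, against 115. For these 3 genes the interval of KO B lay below that of WT and the interval of KO A overlapped it.

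The 24 WT cells that fell in cluster 4 allow a look within that cluster. Spo11 was at 0.199 CPM in KO A (0.00504 to 1.11) and 2.03 in KO B (0.877 to 4), against 21.2 in WT (5 UMIs, 6.88 to 49.4), so the KO intervals lay below that of WT, a comparison with 1 WT library and few cells. The intervals were also separate for Ankrd31 (92.9 and 87.3, against 208), Mei1 (64.1 and 60.2, against 123), Iho1 (40.6 and 42.9, against 84.7) and Zcwpw1 (412 and 416, against 576). For Rec114, Mei4, Top6bl and Prdm9 the intervals overlapped. Of these 24 WT cells 2 were called doublets. Their marker sums also differed from those of KO cells in the cluster. Differentiating markers summed to 699 CPM in WT, against 1597 in KO A and 1546 in KO B. Pachytene spermatocyte markers summed to 131 CPM in WT, against 36.4 and 42.1. Leptotene-zygotene markers were closer, at 3386 CPM in WT, against 3240 and 3658. The part of these differences in the member values was not tested.

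Detection per cell followed the levels. After each cell was thinned to 5000 UMIs, a mean of 2.78 and 2.80 of the 9 genes was seen in KO A cells of clusters 4 and 5 and 2.68 and 2.70 in KO B cells, against 4.16 in WT cluster 3. Before thinning these means were 3.72 and 5.12, 3.72 and 4.95, and 6.16. At least 5 of the 9 genes were seen together in 7.77% and 10.1% of KO A cells and 6.58% and 6.86% of KO B cells, against 38.2% of WT cluster 3 cells (exact interval 33.5 to 43.0). In cluster 2 that share was 1.32% in KO A and 0.491% in KO B, against 3.06% in WT. A Spo11 UMI was seen in 0.169% and 0.896% of thinned KO A cells of clusters 4 and 5 and in 1.36% and 0.980% of KO B cells, against 9.60% in WT cluster 3 (19.0% before thinning). Clusters of a cell type that should lack these genes were not captured. Cluster 1, the nearest to it, had a Spo11 UMI in 0% of KO A, 0% of KO B and 2.22% of WT cells, with exact upper bounds of 5.44% for the 66 KO A cells and 4.02% for the 90 KO B cells. These bounds exceed the KO shares, so cluster 1 does not show whether the KO shares are background. In KO B the thinned share in cluster 4 (exact interval 0.501 to 2.94) was above that of its cluster 2 (0%, at most 0.452%). Before this random thinning the KO B shares were 1.81% in cluster 4 and 0.86% in cluster 2. KO A went the other way, with 0.169% of thinned cells in cluster 4 and 0.945% in cluster 2. A Prdm9 UMI was seen in 42.9% and 42.4% of KO A cells and 35.1% and 38.4% of KO B cells, against 68.4% in WT cluster 3, and cluster 1 had 4.55% in KO A, 0% in KO B and 2.22% in WT. Median depths of cluster 1 were 17638, 18241 and 18402 UMIs, against 8149 to 16156 in KO clusters 4 and 5 and 12210 in WT cluster 3.

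KO cells of clusters 4 and 5 were split at each library's median of a 20-gene M-phase sum (6882 CPM in KO A and 7898 in KO B). Of those 20 genes 15 rose and 2 fell in clusters 3, 4 and 5 (median log2 1.11), beside 37.4% of all genes higher and 29.1% lower. The Prdm9 values of both parts were close, at 113 CPM in M-phase-high and 114 in M-phase-low cells of KO A and 94.9 and 99.5 in KO B. Rec114 was lower in M-phase-high cells in both libraries (94.0 and 115 CPM in KO A, 91.0 and 119 in KO B). Ankrd31 was higher in them (120 and 91.7 in KO A, 112 and 99.8 in KO B). Zcwpw1 ratios were 0.931 and 0.904, with intervals below 1. For Spo11, Top6bl, Mei1, Mei4 and Prdm9 the interval of the ratio held 1 in both libraries, and for Iho1 in KO A alone.

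**Figure D5:**
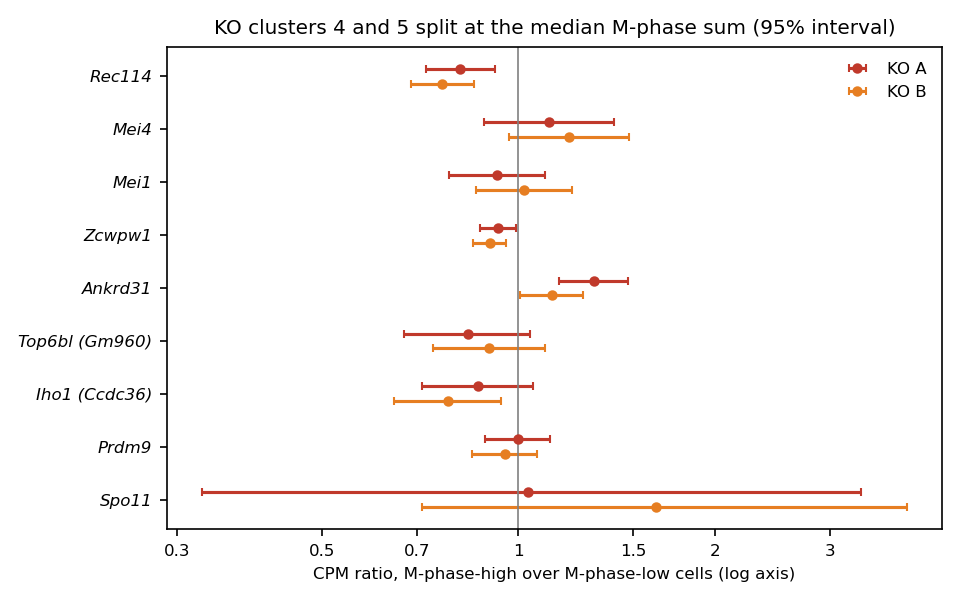
Ratio of CPM in M-phase-high over M-phase-low KO cells of clusters 4 and 5 (log axis) with its 95% interval, for KO A and KO B. Ankrd31 lies above 1 (1.30 and 1.13) and Rec114 below it (0.815 and 0.765) in both libraries.

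Other deposited values of these genes were compared. The authors' U-motif score, which rates a gene for a U-rich motif, was 0.073 for Prdm9, rank 38 of 14103 genes, against a median of 0.011. It was 0.027 for Rec114, 0.024 for Mei4, 0.022 for Zcwpw1, 0.018 for Spo11, 0.016 for Ankrd31, 0.014 for Iho1, and 0 for Top6bl and Mei1. In clusters 3, 4 and 5 the log2 changes were -1.36 for Prdm9 and -0.18 for Rec114, and -0.85 for Top6bl and -1.22 for Mei1. A link between the score and these changes was not tested. The level patterns were also compared over 12 cluster-library sums, as Pearson's r of log2(CPM + 1), which share libraries and depth and are given as a description. For each member the 3 highest of 8368 genes are named, and such a choice over 12 sums gives high values by itself. The Spo11 pattern rests on few UMIs, such as 1 in cluster 4 of KO A and 2 in cluster 1 of WT. Spo11 was most like Ankrd31 among the members (0.91) and least like Rec114 (0.28), and Mei4 and Zcwpw1 were the closest pair (0.97). Outside the set, the genes closest to Spo11 were Adad1 (0.93), Nosip (0.91) and Pet2 (0.91), those closest to Prdm9 were Rabgap1l, Manf and Zfp398 (all 0.99), and those closest to Iho1 were Acss2, Fmr1 (both 0.99) and Npat (0.98). Mei1 was closest to the cohesin subunit Stag3 and to Parp12 (both 0.99) and Pip5k1a (0.98), and Rec114 to Ly6k, Ubxn2a and Oip5 (all 0.98). Top6bl was closest to Eif1ad, Slc35f5 and Rasal2 (all 0.99), Ankrd31 to Mpp5 (0.96), Dnpep and Ptpn2 (both 0.95), Mei4, next to Zcwpw1, to Mrgbp (0.97) and Cdc42se2 (0.96), and Zcwpw1 to Cdc42se2, Cdkl2 and Tdrkh (all 0.98).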

How the data were processed

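Single-cell libraries of KO and WT testis cells were analysed. Cell Ranger 3.0.2 and Scanpy are named in the submitters' processing notes, with mm10/GRCm38. The authors deposited natural log values, ln(1 + count/size factor), with a cell table of UMI counts, the mitochondrial fraction, the size factor (a score), library and cluster, and a gene table with a U-motif score. Undoing log and size factor gave whole counts for 100% of 19333906 values above 0 (relative tolerance 0.001). Every deposited cell, each with at least 3000 genes, was kept. Scrublet in Scanpy 1.11.5 called 5 KO A, 11 KO B and 6 WT doublets, which were kept.

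limma 3.58.1 (R 4.3.3, empirical Bayes with trend, Benjamini-Hochberg over all genes tested) was run on log2(mean value + 0.01) for genes with a mean of at least 0.05, called at an adjusted p under 0.05, with 1 residual degree of freedom (prior 25.0, 11.0 and infinite for all germ cells, cluster 2, and clusters 3, 4 and 5). This scale understates changes of low genes. edgeR 4.0.16 and DESeq2 1.42.0 on recovered counts were alternatives. On simulated data limma recovered 94.9%, 93.7% and 87.4% of 2-fold changes in these classes, and 100% of 4-fold changes in each. False calls were 17, 9 and 34, on 9643, 9429 and 9282 genes. In clusters 3, 4 and 5 the 34 stand beside 95 genes changed 2-fold and 94 changed 4-fold. The false share of calls was thus above the 0.05 threshold there, and also in all germ cells. The dispersion was set to 0.01 and not estimated from these libraries. KO cells were matched to the KO group by genotype and split by the deposited library number, and neither KO library could be tied to 1 KO sample. The members are the genes named at the start. From the lists, up to 3 lowest and 2 highest called genes per comparison could be named, and per member the 3 most alike genes (mean of at least 10 CPM, no predicted genes). Members and lists were chosen with earlier results of these data known.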

Additional observations from a re-analysis of the deposited data

Results flagged for a closer look

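Some members were above WT in both KO libraries in one class of cells and below WT in another. These differences in direction were not tested. Values are log2 ratios of the mean KO CPM over the WT CPM. In cluster 1, which holds 66 KO A, 90 KO B and 45 WT cells, Mei4 was at 0.656, Zcwpw1 at 0.276, Rec114 at 0.181 and Ankrd31 at 0.0604, while all 4 were below WT in clusters 3, 4 and 5. Mei4 rests there on 8 WT UMIs, and the KO and WT intervals overlapped for all 4 genes. In the same cluster peritubular myoid markers summed to 904 CPM in KO A and 1135 in KO B, against 2070 in WT, and stromal markers to 298 and 323, against 455, and their part in these values was not tested. Along the axis gene score Prdm9 was at 0.268, 0.727 and 0.640 in ranges 1, 2 and 3, and Rec114 at 0.276, 0.0944 and 0.270. Top6bl was at 1.05 and 1.15 in ranges 2 and 3, Iho1 at 0.766 and 0.0203, and Zcwpw1 at 0.0831 in range 3. Each of these was below WT in range 4. Both KO intervals lay above that of WT only for Prdm9 in ranges 2 and 3 and for Top6bl in range 3. For the other values above WT at least 1 KO interval overlapped that of WT.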

How the results depend on the processing

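All 54 member values recomputed without KO replicate A or B, and all 218 under the other alternatives, kept a log2 change below 0. None of these used plain CPM, by which Rec114 was not below WT throughout. In all germ cells it was at 94.5 CPM in KO A and 91.9 in KO B, against 90.4 in WT. In cluster 2 it was at 85.2 and 82.8, against 84.8, and in clusters 3, 4 and 5 at 104 in both, against 106. By CPM every other member was below WT in both KO libraries in these classes. In cluster 2 the number of members called lower was 2, but 0 with no filter on low values, 1 with DESeq2 or with doublets left out, 4 with edgeR, with cells of somatic or globin UMIs left out or with equal cells per library, and 5 on TMM-scaled sums. Leaving out cells of somatic or globin UMIs took KO A in cluster 2 from 529 to 528 cells and removed none of KO B or WT there. In clusters 3, 4 and 5 it removed no cell, so its values there repeat the main fit. The cause of the differing counts was not tested. In all germ cells it ranged between 6 and 8 and in clusters 3, 4 and 5 between 8 and 9. Shares over all genes were counted for the main fit only. Without KO replicate A or B no count was had, since 1 library against 1 leaves no spread. The order of onset in WT was the same for 9 of 9 genes by mean values, and by these 36 in place of 34 of 36 KO values lay below WT cluster 3. Spo11 is limited by depth, with 1 to 20 UMIs per KO cluster. No paired analysis was possible because the single-cell columns carry no replicate numbers shared between KO and WT.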
